A study of Mus musculus with 2 samples.

Results

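The chemokine system of mouse MA9 leukaemia cells was described from 2 lists of H3K27ac peaks. The genes were chosen by name: protein-coding genes of chromosomes 1 to 19 whose symbol is Ccl, Cxcl, Ccr, Cxcr, Xcr, Xcl, Cx3cr, Cx3cl or Ackr followed by digits. This rule took 61 of 20665 genes, and 60 of them have a position on a chromosome: 38 ligands and 22 receptors, of which 4 are atypical receptors. Ccl21c lies on an unplaced scaffold and was not analysed. Ccl21a, Ccl21b and Ccl21d, and likewise Ccl27a and Ccl27b, are near-identical copies on chromosome 4 between which short reads cannot be placed with certainty, so their values are uncertain.

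Chemokines are small secreted proteins that direct the movement of leukocytes through G protein-coupled receptors. CC and CXC chemokines differ in the spacing of their first cysteines, many of their genes lie in tight genomic clusters, and atypical receptors bind chemokines without coupling to G proteins. In bone marrow, Cxcl12 from stromal cells holds haematopoietic cells through Cxcr4, while Cxcr2 and Ccr2 are known for releasing neutrophils and monocytes. H3K27ac, acetylation of lysine 27 of histone H3, marks active promoters and enhancers.

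Both libraries came from MA9 cells, leukaemia cells carrying the MLL-AF9 fusion, taken from bone marrow of primary mice. One library was labelled Gata2 f/f and 1 was labelled Gata2 KO (Gata2 -/-). Gata2 encodes a transcription factor required by haematopoietic stem cells. According to the labels the cells were transduced with Cre or with MIT as the control, sorted for GFP and tdTomato, and cultured with IL-3, IL-6 (10 ng/mL) and SCF (20 ng/mL) for 7 to 9 days before chromatin immunoprecipitation. Age, the vector of each library and the number of animals behind it were not stated in the labels.

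With 1 library per genotype no test was possible, and every difference below is one between these 2 libraries. On the chromosomes kept there were 34272 peaks in the f/f list and 37234 in the KO list, with median widths of 1207 and 1166 bp. The median fold enrichment was 3.51 in f/f against 3.09 in KO, and the median -log10 p 12.2 against 9.41. A cut-off of the same value is therefore not equally strict in the 2 lists, which limits every setting below that uses one. Read depth is unknown. In a bulk sample, fewer cells of a type and less signal per cell cannot be told apart. At Gata2 itself both lists had gene-end peaks, and peaks covered 15.4% of its locus in f/f against 8.41% in KO, which does not check the deletion.

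The labelled cell type was checked against defining markers. Of 10 myeloid leukaemia progenitor markers, 7 had gene-end peaks in both lists, among them Spi1 and Kit, where 49.3% of all protein-coding genes did. The remaining 3, Hoxa9, Meis1 and Mpo, had one in f/f with a KO peak between 1000 and 5000 bp (0.948% of all genes). The summed coverage of the 10 was 160 percentage points in f/f against 148 in KO, 5 being higher and 5 lower in KO, with Elane at 33.6% and 24.2% and Hoxa9 at 46.5% and 39.2%. None of 9 stromal markers had a gene-end peak in either list, and 5 of 6 endothelial, 6 of 8 T and NK, and 4 of 6 B cell markers had none in either. Of all genes 45.1% had none in either, so the smaller of these counts say little on the cell type. Some mature neutrophil and monocyte markers were marked in 1 library alone: S100a9 and Retnlg of 8 neutrophil markers, and 2 of 9 monocyte and macrophage markers, Mrc1 among them, had gene-end peaks in the KO list alone. Of all genes 1.66% did.

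The 250 bases before the transcription start are shown for 8 genes on which the results turn. For 7 of them a peak in both lists overlapped the promoter window, which also holds the first 50 bases from the start on. For Cxcr4 the KO peak stopped 36 bp short of the start, inside the gene. It covered 14 bp of that window and none of the printed bases, against 155 bp of the window in f/f. The remaining gene is Cxcl12, whose start had a peak in the KO list alone. The printed bases come from RefSeq on GRCm38.p6, the assembly also called mm10. They are written 5′ to 3′ on the gene's strand, with the base nearest the start last. Capitals mark matches to short words for GATA, NF-kB, ETS, C/EBP or AP-1 factors, on either strand.
Ccl3 (chr11:83649379-83649628, minus strand): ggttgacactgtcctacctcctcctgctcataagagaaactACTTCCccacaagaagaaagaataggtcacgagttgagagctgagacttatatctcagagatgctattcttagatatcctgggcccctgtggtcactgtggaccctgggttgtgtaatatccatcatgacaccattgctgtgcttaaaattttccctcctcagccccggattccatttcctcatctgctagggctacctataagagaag
Ccl6 (chr11:83593088-83593337, minus strand): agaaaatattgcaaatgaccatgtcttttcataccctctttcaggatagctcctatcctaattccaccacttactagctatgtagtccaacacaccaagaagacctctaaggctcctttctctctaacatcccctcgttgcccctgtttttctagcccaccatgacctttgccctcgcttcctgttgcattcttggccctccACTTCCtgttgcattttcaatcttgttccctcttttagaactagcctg
Ccl9 (chr11:83578637-83578886, minus strand): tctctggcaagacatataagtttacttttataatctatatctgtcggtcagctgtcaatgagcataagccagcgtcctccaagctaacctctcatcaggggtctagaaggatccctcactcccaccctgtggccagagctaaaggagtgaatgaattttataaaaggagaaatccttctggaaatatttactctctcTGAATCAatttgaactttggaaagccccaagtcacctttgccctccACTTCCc
Ccl12 (chr11:82101595-82101844, plus strand): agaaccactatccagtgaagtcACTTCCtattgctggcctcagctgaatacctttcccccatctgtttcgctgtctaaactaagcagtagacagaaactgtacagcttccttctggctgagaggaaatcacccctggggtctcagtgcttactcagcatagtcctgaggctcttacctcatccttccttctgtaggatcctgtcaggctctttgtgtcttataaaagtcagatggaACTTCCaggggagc
Cxcl2 (chr5:90903649-90903898, plus strand): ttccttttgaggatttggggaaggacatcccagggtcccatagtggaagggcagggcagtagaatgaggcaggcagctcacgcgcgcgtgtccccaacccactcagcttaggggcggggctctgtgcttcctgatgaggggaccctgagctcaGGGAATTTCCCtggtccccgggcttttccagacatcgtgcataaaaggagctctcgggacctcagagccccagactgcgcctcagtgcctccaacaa
Cxcl12 (chr6:117168285-117168534, plus strand): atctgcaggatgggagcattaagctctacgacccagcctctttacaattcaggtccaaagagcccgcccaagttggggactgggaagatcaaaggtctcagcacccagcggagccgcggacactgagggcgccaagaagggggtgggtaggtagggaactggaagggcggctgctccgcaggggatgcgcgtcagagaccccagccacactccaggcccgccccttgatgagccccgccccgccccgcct
Cxcr4 (chr1:128592300-128592549, minus strand): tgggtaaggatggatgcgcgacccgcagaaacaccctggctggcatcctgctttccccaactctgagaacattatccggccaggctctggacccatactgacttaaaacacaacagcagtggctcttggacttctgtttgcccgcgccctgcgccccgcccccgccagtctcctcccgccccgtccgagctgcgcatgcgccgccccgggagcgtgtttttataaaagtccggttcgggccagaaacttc
Cx3cr1 (chr9:120068297-120068546, minus strand): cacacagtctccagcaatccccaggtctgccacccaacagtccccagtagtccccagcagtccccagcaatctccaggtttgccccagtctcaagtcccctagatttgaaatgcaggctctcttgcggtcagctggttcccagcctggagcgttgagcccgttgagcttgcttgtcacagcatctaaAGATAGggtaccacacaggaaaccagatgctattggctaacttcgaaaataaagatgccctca

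The words searched were AGATAA or TGATAA or AGATAG or TGATAG for GATA factors, GGGA followed by any 4 bases and CC for NF-kB, GGAAGT for ETS factors, TTGCNNAA for C/EBP and TGANTCA for AP-1. Cxcl2 held a palindromic NF-kB match whose first base lies 97 bases before the start, where the 2 strands give overlapping matches. Cx3cr1 held the GATA word AGATAG, 63 bases before the start. The ETS word occurred on the opposite strand in Ccl12 (228 and 14 bases before the start), Ccl9 (7 bases), Ccl6 (48 bases) and Ccl3 (209 bases), and Ccl9 also held an AP-1 match at 53 bases. No match lay in the printed windows of Cxcr4 and Cxcl12. Both are the CpG-rich promoters of the set, with 20 CpG each in the full window of 300 bases, against 2 to 11 in the other 6.

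Promoter windows were available for 46 of the 60 genes, 53 windows in all. Among these, 35.8% held a GATA word, 41.5% an NF-kB word, 35.8% the ETS word, 15.1% the C/EBP word and 18.9% the AP-1 word. The shares over all 20085 promoters of the same length were 25.6%, 23.4%, 25%, 10.3% and 7.06%. The median promoter of the chemokine system held 4 CpG, against 14 over all promoters. In 8 windows a peak overlapped in both lists (the 7 above and Ccl25): 5 of the 8 held the ETS word and 1 a GATA word, which 31.4% and 15.9% of all promoters under a peak in both lists held. The 40 windows under no peak held a GATA word in 45% and an NF-kB word in 47.5%, against 35.4% and 19.4% of all promoters under no peak. These are counts of letters in fixed windows, and no binding was measured.

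A gene was taken as marked when a peak reached into the 1000 bp around its first or last base, called a gene-end peak here. In f/f cells 20 of the 60 genes were marked (33.3%, 95% Wilson interval 22.7 to 45.9%, counting error only), against 52.2% of 20560 protein-coding genes. In KO cells 24 were marked (40%, 28.6 to 52.6%), against 52.1%. Both lists marked 18 genes, 30% against 49.3% of all genes, and neither marked 34, 56.7% against 45.1%. The chemokine system was thus less often marked than protein-coding genes at large in these 2 lists, and most of its marked genes were marked in both.

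Ligands and receptors were counted apart, with no test. Of 38 ligands 10 were marked in both lists and 25 in neither. Of 22 receptors 8 were marked in both and 9 in neither. Among the families, 6 of 24 CC ligands, 4 of 12 CXC ligands, 3 of 11 CC receptors, 1 of 5 CXC receptors and 2 of 4 atypical receptors were marked in both, as were the only XC and CX3C receptors, Xcr1 and Cx3cr1. The ligands of these last 2 receptors, Xcl1 and Cx3cl1, were marked in neither list.

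**Figure D1:**
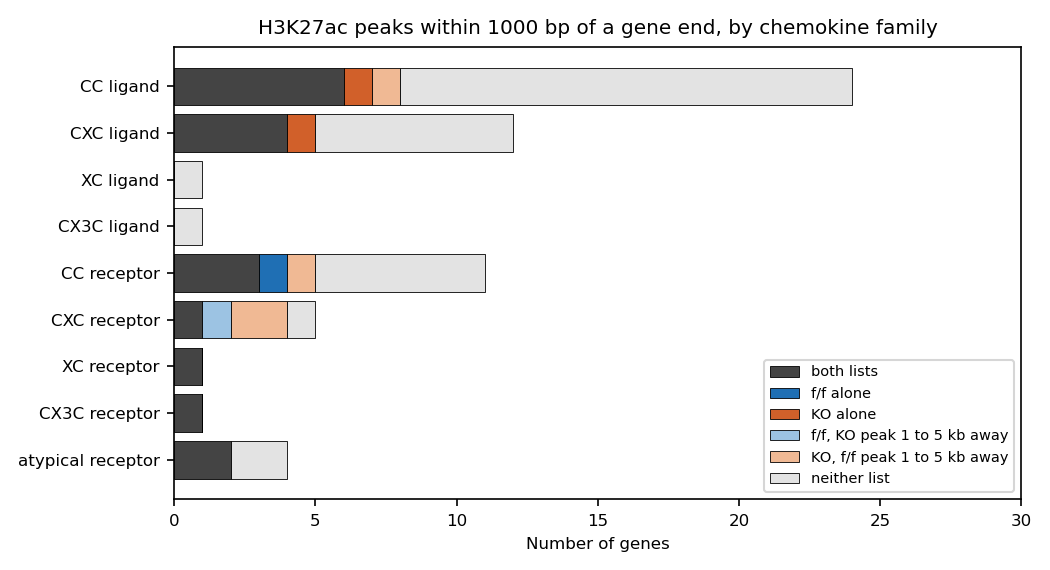
Number of genes (horizontal axis) in each chemokine ligand or receptor family (rows), coloured by whether a gene-end peak was found in both lists, in 1 list or in neither. Most ligands were marked in neither list, 18 of the 60 genes were marked in both, and 3 were marked in 1 list with no peak of the other list nearby.

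The difference between the libraries at gene ends was small. A gene counted as marked in 1 list alone when no peak of the other list came within 5000 bp of its ends. Ccr3 was the single gene marked in f/f alone, 1 of 60 against 1.89% of all genes. Ccl17 and Cxcl12 were marked in KO alone, 2 of 60 against 1.66%. Cxcr6 was marked in f/f with a KO peak between 1000 and 5000 bp, where 0.948% of all genes fell. Cxcr2, Ccl27a, Cxcr5 and Ccr2 were marked in KO with an f/f peak at that distance, 4 of 60 against 1.1% of all genes. At annotated transcription starts, which 46 genes have in the RefSeq table, 10 had a peak within 1000 bp in both lists (50.8% of 16457 genes did). In f/f only there were 2, Cxcr6 and Ccr3 (2.49%), and in KO only 5, Cxcr2, Ccl27a, Cxcl12, Ccl17 and Ccr4 (1.9%).

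All 3 genes marked in 1 list alone rested on weak peaks. The authors' -log10 p of a peak is used here only to place it within its own list. Ccr3, the eotaxin receptor of eosinophils (chr9:124017825-124031692), held 2 f/f peaks inside the gene, of 1358 and 462 bp, with -log10 p of 3.66 and 3.45, the 5.73rd and 3.82nd percentile of the f/f list. The nearest KO peak lay 5466 bp from an end of the gene. Ccl17, a ligand of Ccr4 made by dendritic cells and macrophages (chr8:94809380-94812038), held a KO peak of 1098 bp inside the gene with a -log10 p of 5.61, the 30.4th percentile of the KO list, while the nearest f/f peak lay 6818 bp away. Cxcl12, the ligand of Cxcr4 (chr6:117168535-117181368), had a KO peak of 414 bp beginning 18 bp inside the gene, with a -log10 p of 4.24, the 17th percentile.

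Cxcl12 was otherwise alike in the 2 lists. Its nearest f/f peak lay 31241 bp from the start, and the coverage of its locus was 3.03% in f/f against 2.95% in KO. Stromal cells are its main known source in marrow, and 0 of 9 stromal markers had a gene-end peak in either list (45.1% of all genes had none). The summed coverage of these markers was 17.8 percentage points in f/f against 19.7 in KO. When weaker peaks were dropped, keeping a -log10 q of at least 5, neither Ccr3 nor Ccl17 nor Cxcl12 was marked in 1 list alone, and Ccl12 and Ccl27a took their place as KO alone. With the 2 lists matched in number, all 60 genes kept their status.

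The strongest gene-end peaks among ligands, at Ccl25 and Cxcl16, were shared with neighbouring genes. Ccl25, a ligand of Ccr9 known from thymus and gut (chr8:4325205-4360020), had a peak of 1662 bp in f/f (97.9th percentile of -log10 p) and 1684 bp in KO (96.5th), which also lies at the end of Elavl1. Cxcl16, the ligand of Cxcr6 (chr11:70454389-70459984), had one of 1956 bp in f/f (94.2nd percentile) and 1997 bp in KO (90.4th), which also lies at the end of Med11. Neither peak can be assigned to the chemokine gene rather than its neighbour.

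Ccl3 and Ccl4 encode macrophage inflammatory proteins, and Ccl3 binds Ccr1. Their gene models overlap, and 1 peak over the start of Ccl3 lay at an end of both: 1933 bp in f/f (83.6th percentile) and 1960 bp in KO (75.9th). Ccl4 also had a weaker peak at its other end, of 1158 bp in f/f (49.2nd percentile) and 1782 bp in KO (36.4th). Coverage over Ccl3 and its 25 kb flanks was 15.1% in f/f against 14.9% in KO, and over Ccl4 11.7% and 11.6%. These were among the most covered ligand loci in f/f, at the 96.6th percentile of all genes for Ccl3, and as reported they differed little between the libraries. When the -log10 q had to reach 5, the differences were -6.57 points for Ccl3 and -5.13 for Ccl4, and at 3-fold enrichment -4.90 and -3.82. With flanks of 50 kb they were 1.31 and 1.36 points, higher in KO.

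Ccl6 and Ccl9, ligands of Ccr1 that mouse myeloid cells are known to make, lie side by side on chromosome 11. The peak at the Ccl6 start was 913 bp wide in f/f against 1465 bp in KO, and that at the Ccl9 start 1885 bp in f/f against 1315 bp in KO. Locus coverage was 10.5% and 12.8% for Ccl6 and 12.0% and 10.7% for Ccl9. The neighbouring genes thus went in opposite directions, and the sign of each turned when the least -log10 q kept was 5. Ccl12, a ligand of Ccr2, was marked by a peak of 839 bp in f/f (18.3rd percentile) and 1185 bp in KO (39.8th), with coverage of 5.19% and 5.46%.

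Among CXC ligands marked in both lists, Cxcl2, Cxcl3 and Cxcl15 lie together on chromosome 5. Cxcl2 and Cxcl3 are ligands of Cxcr2 that draw neutrophils, and Cxcl15 is known from lung. Cxcl2 had a start peak of 608 bp in f/f against 1155 bp in KO, over the promoter printed above, and locus coverage of 6.87% and 7.56%. Cxcl3 had an end peak of 1493 bp in f/f against 1050 bp in KO, at the 81.1st and 86.1st percentile, which did not reach within 1000 bp of its start. Cxcl15 had a peak within 1000 bp of its start, of 588 bp in f/f (23rd percentile) and 1926 bp in KO (21.8th). Cxcl1 and Cxcl5, further ligands of Cxcr2, had no gene-end peak in either list, with coverage of 6.63% and 7.44% for Cxcl1, and 2.63% and 3.23% for Cxcl5.

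Cxcr4, the receptor for Cxcl12 that holds haematopoietic and leukaemia cells in marrow, was the most covered receptor of the set (chr1:128588199-128592299). Its gene-end peak was 1878 bp wide in f/f (86.6th percentile) and 2083 bp in KO (89.5th). Peaks covered 14.6% of the locus in f/f, with 5 peaks, and 19.1% in KO, with 6. All 5 f/f peaks overlapped KO peaks, and the largest change in width was at a peak upstream of the start, 669 bp in f/f against 1839 bp in KO. Keeping only peaks of at least 3-fold enrichment, it became -3.84 percentage points, so that the direction depends on the peaks of lower enrichment.

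Cx3cr1, the fractalkine receptor of monocytes (chr9:120048683-120068296), was marked at its start by a peak of 993 bp in f/f (59.9th percentile) and 908 bp in KO (59.6th). Locus coverage was 5.55% in f/f against 7.99% in KO, and this difference turned at a -log10 q of at least 5 and at 3-fold enrichment. Xcr1, the receptor of cross-presenting dendritic cells, had an end peak of 1123 bp in f/f against 1167 bp in KO that also lies at the end of Fyco1.

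Ccr7 and Ccr10, which direct lymphocytes and dendritic cells to lymph nodes and lymphocytes to skin, respectively, were marked in both lists and less covered in KO. Ccr7 (chr11:99144199-99155077) kept an end peak of nearly the same width, 3236 bp in f/f against 3148 bp in KO, while a peak on its flank measured 2294 bp in f/f against 853 bp in KO and a further f/f peak of 1220 bp had no KO counterpart. Locus coverage was 12.7% in f/f against 7.61% in KO. Ccr10 (chr11:101172998-101175443) had an end peak of 3002 bp in f/f against 571 bp in KO, and locus coverage of 7.99% and 2.84%. The f/f peak of Ccr10 also reaches the end of Cntnap1.

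The atypical receptors clear or scavenge chemokines. Ackr2, which degrades inflammatory CC chemokines (chr9:121898355-121911075), had an end peak of 1014 bp in f/f against 752 bp in KO, and locus coverage of 10.0% and 4.70%. An f/f peak of 2176 bp on its flank (chr9:121929476-121931651) had no KO counterpart, and with a -log10 p of 14.4 it was the strongest unshared f/f peak in the whole set. Ackr4, which scavenges Ccl19, Ccl21 and Ccl25, had a peak of 2264 bp in f/f against 718 bp in KO, with coverage of 3.63% and 3.95%. Ackr1 and Ackr3 had no covered base in either list.

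**Figure D2:**
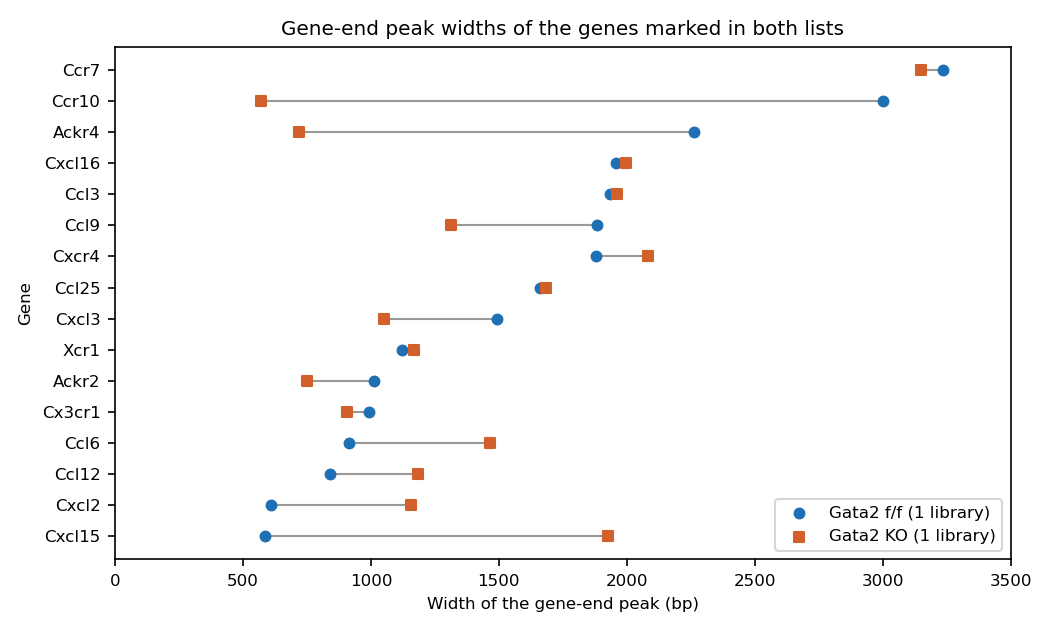
Width in bp (horizontal axis) of the overlapping gene-end peaks in the f/f list (circles) and the KO list (squares), 1 row and 1 pair per gene. Ccl4 is left out because its strongest gene-end peak is that of Ccl3, and 1 further gene is not drawn. Among the genes drawn, Cxcl15 was the most widened in KO and Ccr10 the most narrowed.

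With 1 pair taken per gene, 17 distinct gene-end peak pairs were matched, 10 wider in KO and 7 narrower. Left out of this count were a further pair at Ccl9, 1010 bp in f/f against 595 bp in KO, and one at Ccl4, 1158 bp in f/f against 1782 bp in KO. Over all peaks of these loci, 91 pairs matched one to one, of which 47.3% were wider in KO with a median width ratio of 0.978. On chromosomes 1 to 19 the same figures were 47.6% and 0.992.

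Of the 5 genes with a gene-end peak in 1 list and a nearby peak in the other, 4 are receptors. Cxcr2, the neutrophil receptor for Cxcl1, Cxcl2 and Cxcl5 (chr1:74153994-74161246), held an intragenic peak of 1393 bp in f/f that ended short of the gene's ends by 1634 bp. In KO that peak was 2984 bp wide and reached to 123 bp from the start of the gene. Coverage of the Cxcr2 locus was 12.4% in f/f against 16.0% in KO, and that of its neighbour Cxcr1 was 1.58% and 5.25%. The Cxcr1 difference kept its sign in all 8 settings tried (4 of peak threshold or list length, 3 of flanks and 1 of symbols, which leaves single genes as they are), falling to 0.27 points in 3 of them, while that of Cxcr2 turned at a -log10 q of at least 5 and at 3-fold enrichment.

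Mature neutrophil markers moved the same way. Of 8 such markers 6 were more covered in KO (42.1% of all genes were), 4 of them by at least 5 percentage points (1.84%). The summed coverage of the markers was 43.2 points in f/f against 84.5 in KO. The windows of S100a8 and S100a9, both among the 4, overlap, so their shared bases are counted more than once. S100a9 had 1.44% in f/f against 13.9% in KO, Retnlg 0% and 3.42%, and no marker of the list was at 0 in both. The part of this shift in the Cxcr2 and Cxcr1 values was not tested.

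Ccr2, the monocyte receptor for Ccl2, Ccl7 and Ccl12 (chr9:124101918-124109140), differed in status by a few bases only. Its f/f peak of 1245 bp lay 1019 bp from the gene's first base, just outside the window. The overlapping KO peak of 1674 bp lay 479 bp from that base. At its annotated start Ccr2 had a peak in both lists. Locus coverage was 8.43% in f/f against 11.0% in KO, a difference that became -1.25 points when the -log10 q had to reach 5 and was also below 0 with flanks of 50 and 100 kb. Of 9 monocyte and macrophage markers 6 were more covered in KO and 1 less (42.1% and 34.9% of all genes). Their summed coverage was 41.0 points in f/f against 49.9 in KO. In both lists 2 of the markers were at 0, and the list's part in the Ccr2 value was not tested.

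Cxcr5, the receptor that guides B cells to follicles, had a KO peak of 1647 bp 295 bp from its end, which also lies at an end of Bcl9l, and coverage of 12.7% in f/f against 14.0% in KO. That difference was -5.26 points at 3-fold enrichment and -1.22 when the -log10 q had to reach 5. Of 6 B cell markers 1 was marked in both lists and 4 in neither (49.3% and 45.1% of all genes). Cxcr6, the receptor for Cxcl16, had an f/f peak of 670 bp at 274 bp from its start (21.3rd percentile) and coverage of 1.21% and 2.92%. This difference turned in 4 of the 8 settings, to -0.52 points with lists of equal number and -1.21 at 3-fold enrichment. Ccl27a, a skin ligand of Ccr10 (chr4:41769467-41774225), had a KO peak of 2765 bp with a -log10 p of 24.0, the 74.7th percentile of its list. The overlapping f/f peak was 617 bp wide and lay 1252 bp from the gene. This was the strongest KO peak among genes whose gene-end status differed, with the reservation that Ccl27a has a near-identical copy.

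**Figure D3:**
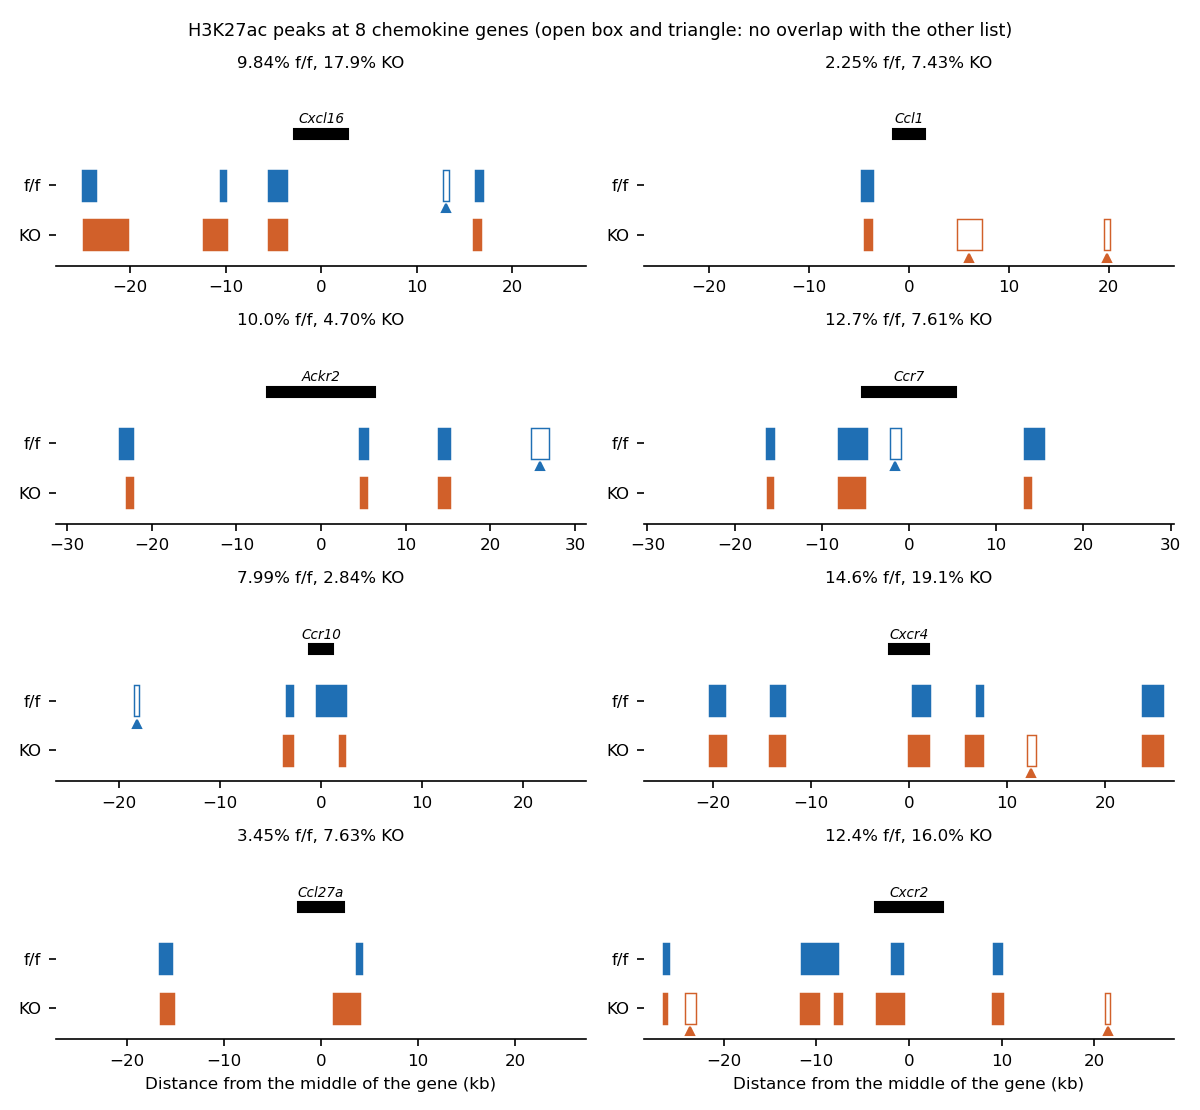
Peaks of the f/f list (upper boxes) and KO list (lower boxes) around 8 genes, drawn to scale as distance in kb from the middle of the gene (black bar), under the coverage of each list. Filled boxes overlap the other list, and open boxes with a triangle do not. Most boxes recur in both lists, and many differ in width.

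Coverage over a gene and 25 kb on both sides was higher in KO for 32 genes and lower for 17, while 42.1% and 34.9% of all genes were higher and lower. It was 0 in both lists for 11 genes, against 22.9% of all genes. The median gene of the chemokine system had 3.8% in f/f against 5.06% in KO, with a median difference of 0.20 percentage points, and the medians over all genes were 3.32%, 3.5% and 0. For ligands the medians were 3.13% and 3.73% with a median difference of 0. For receptors they were 7.32% and 5.42% with a median difference of 0.70 points, so that the difference of the medians and the median of the differences had opposite signs.

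Because windows of neighbouring genes overlap, they were joined to 38 loci. Of these, 18 were higher in KO, 11 lower, and 9 had no covered base. The loci spanned 2864.65 kb, of which 148.6 kb lay under f/f peaks (5.19%) and 166 kb under KO peaks (5.79%), a ratio of 1.12 against 1.05 on chromosomes 1 to 19. The excess of KO over f/f was not kept when the same stricter cut-off was put on both lists. Because the KO list has the lower median fold enrichment and -log10 p, a turn at these loci cannot be told apart from a cut-off that is harder on KO peaks. With peaks of at least 3-fold enrichment 11 loci were higher in KO and 17 lower, and at a -log10 q of at least 5 the number higher was 11.

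**Figure D4:**
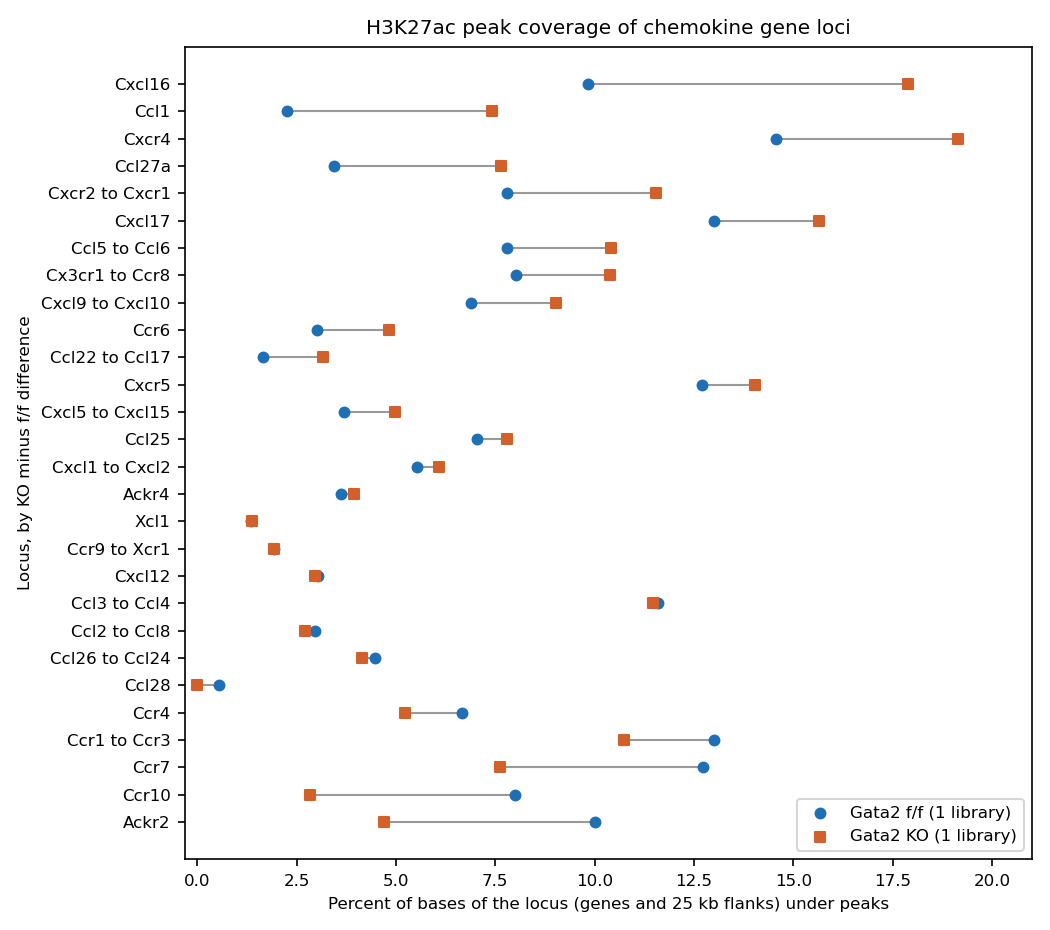
Percent of bases under peaks (horizontal axis) in f/f (circles) and KO (squares) for the loci with a covered base, 1 left out, ordered by the KO minus f/f difference. Cxcl16 heads the loci higher in KO, and Ackr2, Ccr10 and Ccr7 are those lower by at least 5 points.

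A difference of at least 5 percentage points was reached upward by Cxcl16 and Ccl1, 2 of 60 genes against 1.84% of all genes. Downward it was reached by Ackr2, Ccr3, Ccr7 and Ccr10, 4 of 60 genes against 0.778%. All 4 genes that were lower by this margin are receptors, and both that were higher are ligands. Counted as loci, 2 were higher and 3 lower by this margin, since Ccr3 lies in a joined locus. With flanks of 50 kb, and of 100 kb, no locus reached the margin in either direction.

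Cxcl16 had the largest difference, 9.84% in f/f against 17.9% in KO. Its own gene-end peak was nearly equal in width in the 2 lists. The difference lay on its flank: 1 peak measured 1519 bp in f/f against 4690 bp in KO (chr11:70432273-70436962), and another measured 580 bp in f/f against 2477 bp in KO. The wider of these KO peaks overlaps Arrb2, a beta-arrestin gene that desensitises chemokine receptors. Coverage over Arrb2 was 9.35% in f/f against 19.4% in KO, in a window that shares these peaks with that of Cxcl16. Keeping only peaks of at least 3-fold enrichment, the Cxcl16 difference became -2.80 points.

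Ccl1, a ligand of Ccr8 made by activated T cells (chr11:82176666-82179812), had 2.25% in f/f against 7.43% in KO. Overlap between the lists was limited to 1 peak of 1195 bp in f/f against 828 bp in KO, and the rest came from 2 unshared KO peaks with -log10 p of 5.63 and 4.63. The Ccl1 difference was 0 in 2 of the 8 settings. Ccl27a was 3.45% covered in f/f against 7.63% in KO. Ccr8 itself had 9.19% in f/f against 10.1% in KO, with no gene-end peak in either list.

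Among the genes lower in KO, Ackr2, Ccr7 and Ccr10 kept the sign of their difference in all 8 settings tried, but not its size. Ccr7 went from -5.11 points to -0.38 when the -log10 q had to reach 5 and to -0.23 at 3-fold enrichment. Ackr2 went from -5.31 to -2.70 when the -log10 q had to reach 5 and to -0.23 with flanks of 100 kb. Ccr10 stayed between -9.85 and -1.36. Ccr3 had 13.8% in f/f against 7.52% in KO, was lower in 7 of the 8 settings and equal in 1. Its joined locus, Ccr1 to Ccr3, had 13% in f/f against 10.7% in KO, since Ccr1, a receptor for Ccl3, Ccl5, Ccl6 and Ccl9, went the other way with 11.9% and 14.2%. Ccr4, the receptor for Ccl17 and Ccl22, had 6.65% in f/f against 5.23% in KO.

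Of the 49 genes with a difference, 10 kept its sign in every setting that gave a value, though several came close to 0. These were Ackr2, Ccr7 and Ccr10, lower in KO, and Ccl17, Ccl27a, Ccr6, Cxcl2, Cxcl9, Cxcl10 and Cxcr1, higher in KO. Ccr6, the receptor for Ccl20, had 3% in f/f against 4.83% in KO. The interferon-induced ligands of Cxcr3, Cxcl9 and Cxcl10, had 3.87% and 6.93%, and 6.24% and 9.60%, in partly shared windows. When the -log10 q had to reach 5, the differences were 0.0035 points for Cxcl9, 0.048 for Cxcl10 and 0.27 for Cxcr1, against 3.06, 3.37 and 3.68 as reported. The lowest over all settings was 0.014 points for Cxcl2 and 0.18 for Ccr6. Ccl17 had 1.04% in f/f against 4.23% in KO, and its lowest difference was 0.60 points. The sign turned in at least 1 setting for Ackr4, Ccl2, Ccl7, Ccl12, Ccl25, Ccr1, Ccr4, Ccr8, Cxcl1, Cxcl3, Cxcl5, Cxcl12, Cxcl15 and Cxcl17, among others.

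A gene was joined to a cluster when it lay within 500 kb of the genes already in it, so the ends of a cluster can lie further apart. In this way 10 clusters of at least 2 genes were formed. In 8 of them KO peaks covered more bases than f/f peaks and in 2 fewer, while with peaks of at least 3-fold enrichment, or a -log10 q of at least 5, the split was 4 and 6. Ccr1 had no gene-end peak in either list but was 11.9% covered in f/f, by peaks 1863 bp or more from its ends.

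The CC ligand cluster Ccl5 to Ccl4 on chromosome 11 was the most densely marked, with 4 of its 5 genes marked in both lists. Peaks covered 16899 bp in f/f against 19877 bp in KO, with 13 and 14 peaks, 11 of each overlapping the other list. Ccl5, a ligand made by T cells and macrophages, was its only unmarked gene, with 6.07% in f/f against 9.38% in KO, and its nearest peak was 13657 bp away in f/f against 3708 bp in KO. The neighbouring monocyte chemoattractant cluster, Ccl2 to Ccl1, held 6 genes of which only Ccl12 was marked. It had 5076 bp in f/f against 7500 bp in KO. The gain lay at the Ccl1 locus, with 1195 bp in f/f against 3947 bp in KO, while Ccl2 to Ccl8 had 3881 and 3553 bp. Ccl2 and Ccl7, ligands of Ccr2, had 2.32% in f/f against 1.43% in KO each, from the same bases.

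Other clusters held fewer covered bases. The CXC ligand cluster Cxcl5 to Cxcl2 had 7033 bp in f/f against 8599 bp in KO, and Cxcl9 to Cxcl10 had 5336 and 7004 bp. The receptor pair Cxcr2 and Cxcr1 had 7079 bp with 4 peaks in f/f and 10467 bp with 9 peaks in KO, and Cx3cr1 to Ccr8 had 7722 and 10000 bp. Ccl26 to Ccl24, the eotaxin ligands of Ccr3, had 2798 bp in f/f against 2600 bp in KO, and Ccl22 to Ccl17, which also holds Cx3cl1, had 1939 and 3680 bp. The homeostatic cluster of chromosome 4 was nearly bare: apart from Ccl27a, its genes Ccl19, Ccl21a, Ccl21b, Ccl21d and Ccl27b had no covered base in either list.

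**Figure D5:**
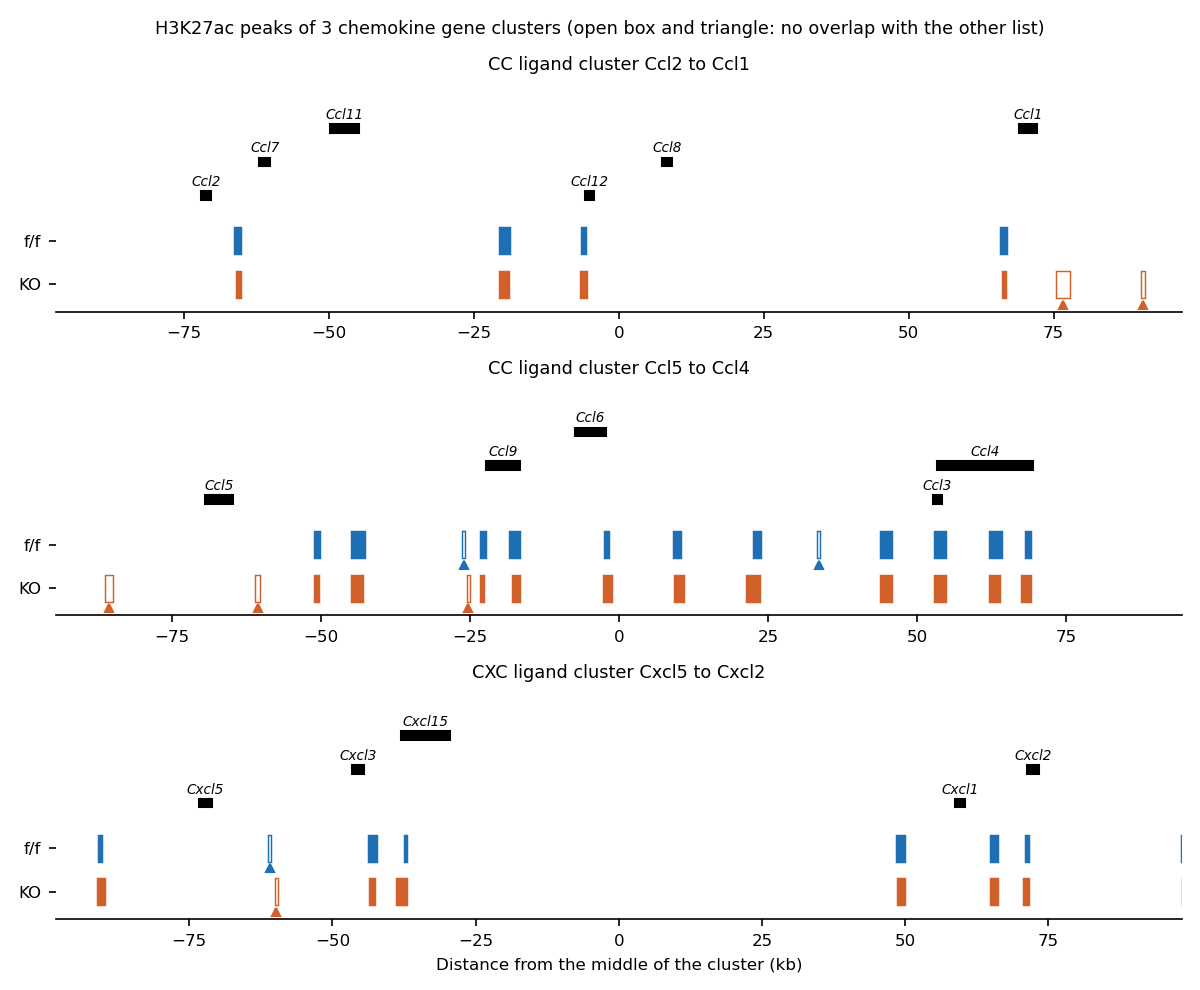
Peaks of the f/f list (upper boxes) and KO list (lower boxes) over 3 gene clusters, drawn to scale as distance in kb from the middle of the cluster, with genes as black bars. Filled boxes overlap the other list, and boxes with a triangle do not. Most f/f peaks recur in KO at the same place.

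Peaks in the chemokine loci were shared between the lists about as often as elsewhere. Of 107 f/f peaks 93 overlapped a KO peak (86.9%, 95% Wilson interval 79.2 to 92.0%), against 83.9% on chromosomes 1 to 19. Of 124 KO peaks 96 overlapped an f/f peak (77.4%, 69.3 to 83.9%), against 77.3%. Of the unshared peaks, 1 of 14 in f/f and 1 of 28 in KO reached the median -log10 p of their list, where 7.46% and 9.28% of all unshared peaks on chromosomes 1 to 19 did. The strongest unshared KO peak had a -log10 p of 12.2 and lay on a flank of Ackr4 (chr9:104146825-104147934).

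Of the 34 genes without a gene-end peak in either list, 21 had peaks within 25 kb in both lists and 11 had none in either. The 11 were Ackr1, Ackr3, Ccl19, Ccl20, Ccl21a, Ccl21b, Ccl21d, Ccl22, Ccl27b, Cxcl13 and Cxcl14. The group holds the lymphoid homing ligands Ccl19, Ccl21a and Cxcl13, known products of lymphoid stroma, beside Ackr3, the second receptor for Cxcl12. Cxcl17, a mucosal chemokine, was the most covered gene without a gene-end peak, with 13% in f/f against 15.6% in KO.

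Of 3 close relatives outside the name rule, 2 were marked in both lists, Pf4 and Ccrl2, where 49.3% of all genes were. Pf4 and Ppbp, platelet chemokines, had 5.26% and 4.11% in f/f and 6.58% and 5.22% in KO, in windows that overlap those of Cxcl5 to Cxcl15. Ccrl2, an atypical chemerin-binding receptor, had 9.81% in f/f against 16.4% in KO. Its neighbour Ltf, a neutrophil granule gene on the marker list, had 6.56% and 15.9%. The windows of Ltf and Ccrl2 overlap, so these values share bases and are not independent, and the part of Ltf in the Ccrl2 value was not tested.

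Of 16 receptors for other chemoattractants, 7 were marked in both lists, 7 in neither and 1 in KO alone. The shares of all genes were 49.3%, 45.1% and 1.66%, so the first 2 counts are near those of genes at large. Coverage was higher in KO for 12 and lower for 3 (42.1% and 34.9% of all genes), with a median difference of 0.98 points. These are counts of genes, and some neighbours share window bases. The formyl peptide receptor genes Fpr2, marked in KO alone, and Fpr1 had 1.98% and 1.93% in f/f and 10.1% and 9.86% in KO. Fpr1 and Fpr2 lie side by side and their windows overlap, so these values are not independent. Ptafr, the receptor for platelet-activating factor, had 14.2% in f/f against 18.8% in KO. The sphingosine 1-phosphate receptor genes S1pr3 and S1pr1 had 16.5% and 6.74% in f/f and 8.96% and 5.03% in KO, and Gpr183, an oxysterol receptor, 14.6% and 8.86%. Of 8 neutrophil markers 6 were higher in KO as well, and their part in the formyl peptide receptor values was not tested.

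Genes of signalling below the receptors were taken from a fixed list. Of 61 such genes 52 were marked in both lists, where 49.3% of all genes were. In neither list 7 were marked (45.1% of all genes), and 1, Lyn, was marked in f/f alone (1.89%). The Lyn value rests on a stretch at the start of chromosome 4 where the KO list has no peak before position 4459322. Coverage was higher in KO for 43 and lower for 15 (42.1% and 34.9% of all genes), with a median difference of 1.02 points. Arrb2, whose window shares bases with that of Cxcl16, was named above. The GTPase gene Rac2 had 11.7% in f/f against 19.1% in KO and the receptor kinase gene Grk6 13% and 18.1%. Lower in KO were Lyn, with 8.99% and 0%, and the G protein regulators Rgs2, with 7.41% and 3.66%, and Rgs16, with 9.73% and 7.4%.

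The NF-kB pathway, a known regulator of inflammatory chemokine genes, was marked in both lists at 21 of 23 genes, where 49.3% of all genes were. Coverage was higher in KO for 15 and lower for 8 (42.1% and 34.9% of all genes), with a median difference of 0.73 points. Nfkbia, the inhibitor IkB alpha, had 9.96% in f/f against 17.3% in KO, Nfkb2 5.27% and 8.26%, and Myd88 13.7% and 16.5%. Nfkbie had 18.9% in f/f against 14.9% in KO, Tnip1 12.2% and 10.3%, and Nfkb1 7.87% and 5.96%.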

How the data were processed

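H3K27ac ChIP-seq was measured in 2 libraries, 1 per genotype, grouped by their labelled genotype. BWA and SAMtools were used for alignment to mm10 and MACS2 for broad peaks, per the submitters' processing notes. Versions, options, control library and read depth were not given in the sources used here. Each deposited peak carries the authors' fold enrichment (a ratio), -log10 p and -log10 q. Peaks were called per library and not pooled. These values ranked peaks within a list, and the cut-offs on fold enrichment and -log10 q were the same value in both lists. No peak's value was compared between lists as an amount of signal.

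Python 3.11.15, scipy 1.17.1 and matplotlib 3.10.9 were used, and 120 window values were checked with bedtools 2.31.1, with 0 mismatches. The overlap code was also tested on simulated data (200 loci, 0 mismatches). Genes, strands and promoters came from RefSeq tables of GRCm38.p6, the assembly of mm10. The table gives no exons, so peaks are placed only inside or outside genes. Strand was known for 46 of 60 genes. Overlap needed 1 bp. 1 gene of the set and 1 marker gene are counted but not reported by name here. A locus is a gene with 25 kb on both sides. Coverage is the percent of its bases under peaks, and a difference of 5 percentage points was called.

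Named in full were genes marked in 1 or both lists and the 4 loci with the largest difference in each direction, and of each pathway list the genes marked in 1 list alone and the 3 largest differences in each direction. The genes and lists were chosen with earlier results of these data known. Cxcr3, Cysltr1, Was and Irak1 of the pathway lists lie on X and were left out. Alternatives varied the peak threshold, list length, windows, flanks, the call and the overlap.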

Additional observations from a re-analysis of the deposited data

How the results depend on the processing

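With 1 library per genotype no value has a replicate, and unknown depth limits every count of unshared peaks. No paired analysis was possible because each genotype has 1 library. Of 72 alternative values, 43 stayed within 1.5 times the reported count or within its interval, and the cause of the other shifts was not tested. With a -log10 q of at least 5, f/f alone held 0 genes, 11 loci were higher in KO, 1 was lower by the 5-point margin, 84.2% of KO peaks were shared, and clusters with more and fewer covered bases numbered 4 and 6. With at least 3-fold enrichment, f/f alone held 4 genes (Ccl3, Ccl4, Ccl9 and Cxcr6), 11 loci were higher and 17 lower, 1 was higher by the margin, 74.6% of f/f peaks were shared, the clusters split 4 and 6, and Cxcl16 turned to -2.80 points. With both lists cut to 34272 peaks, 1 locus was higher by the margin. With the strongest 20000 peaks, f/f alone held 0 genes and KO alone 1 (Ccl27a), 1 locus was higher and 0 lower by the margin, 89.1% of KO peaks were shared, and the clusters split 4 and 6. When the other list needed to lack a peak within 1000 bp only, f/f alone held 2 genes and KO alone 6. With 10 kb flanks 4 loci were higher by the margin, with 50 kb and 100 kb flanks 0 were higher and 0 lower, and a margin of 3 points gave 5 higher loci.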
